A study of Homo sapiens with 6 samples.

Results

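Potassium, sodium and calcium channel subunits were followed in SW480 cells, a human colorectal adenocarcinoma line, with and without introduced FOXC2. The genes were taken by symbol from the probe annotation of the array: those that begin with KCN, those that begin with SCN followed by digits and A or B, and those that begin with CACNA, CACNB or CACNG. In all, 63 of the 12562 named genes fitted, measured by 77 array features, and each gene was represented by its feature with the highest mean over all 6 arrays. In RefSeq (GRCh38.p14), 136 protein-coding symbols fit the same pattern, and those beyond the 63 are not analysed here. The 63 comprised 42 potassium, 5 sodium and 16 calcium channel genes.

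The arrays fell into 2 groups. The first was SW480 carrying a retroviral FOXC2 construct, and the second was SW480 carrying the pBabe control vector, with 3 separate cultures of each. Puromycin selection at 0.5 μg/mL lasted 3 to 5 days in both, and the cells were grown with 10% fetal bovine serum and harvested at 90% confluence. FOXC2 is a forkhead transcription factor. The labels do not name separate transductions or clones, so the tests measure the spread between cultures. Genes are said to have risen or fallen in FOXC2 cells, relative to pBabe cells, where the difference passed limma's test at a Benjamini-Hochberg adjusted p under 0.05 over all 33497 features.

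A voltage-gated channel is built around a pore subunit, 1 long protein in sodium and calcium channels and an assembly of separate subunits in potassium channels, and accessory subunits set how many channels reach the membrane and how they open and close. Potassium channels hold the resting potential negative, sodium channels carry the fast upstroke of action potentials, and calcium channels let in calcium that triggers secretion, contraction and transcription. In colonic epithelium, potassium channels of the basolateral membrane are known to supply the driving force for chloride secretion and sodium uptake. Many voltage-gated subunits are best known from nerve, heart and muscle.

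The DNA around the start site is shown for some of the genes with large changes. The sequences below are RefSeq promoters (GRCh38.p14) of 4 of the 6 genes that changed at least 2-fold, each 300 bases, from 250 before to 50 after the start site, 5′ to 3′ along the gene. KCNH6 lies at chr17:63523108-63523407 on the plus strand, KCNK6 at chr19:38319595-38319894 on the plus strand, KCNMA1 at chr10:77637759-77638058 on the minus strand and SCN4B at chr11:118145384-118145683 on the minus strand. Capitals mark CG dinucleotides, the sites that DNA methylation uses. KCNH6 and KCNK6 were higher in FOXC2 cells, and KCNMA1 and SCN4B were lower.
KCNH6: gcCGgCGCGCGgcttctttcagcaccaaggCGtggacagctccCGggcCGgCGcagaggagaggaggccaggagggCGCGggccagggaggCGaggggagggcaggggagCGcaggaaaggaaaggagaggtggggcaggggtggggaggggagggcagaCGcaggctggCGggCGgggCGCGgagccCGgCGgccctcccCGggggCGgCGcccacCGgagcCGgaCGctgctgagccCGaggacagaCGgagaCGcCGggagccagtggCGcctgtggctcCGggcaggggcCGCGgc
KCNK6: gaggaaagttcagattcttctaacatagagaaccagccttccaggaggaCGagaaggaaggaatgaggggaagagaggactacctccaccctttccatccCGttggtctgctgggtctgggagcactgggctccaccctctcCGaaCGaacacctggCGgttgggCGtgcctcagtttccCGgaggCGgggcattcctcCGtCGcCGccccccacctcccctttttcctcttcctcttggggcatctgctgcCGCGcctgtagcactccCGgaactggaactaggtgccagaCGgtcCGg
KCNMA1: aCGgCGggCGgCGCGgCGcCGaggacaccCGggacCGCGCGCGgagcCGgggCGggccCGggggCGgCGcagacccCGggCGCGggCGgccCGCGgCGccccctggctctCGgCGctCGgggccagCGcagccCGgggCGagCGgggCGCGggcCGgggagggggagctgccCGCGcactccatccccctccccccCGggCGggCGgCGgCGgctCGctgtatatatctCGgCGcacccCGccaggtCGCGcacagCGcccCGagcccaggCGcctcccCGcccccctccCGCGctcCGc
SCN4B: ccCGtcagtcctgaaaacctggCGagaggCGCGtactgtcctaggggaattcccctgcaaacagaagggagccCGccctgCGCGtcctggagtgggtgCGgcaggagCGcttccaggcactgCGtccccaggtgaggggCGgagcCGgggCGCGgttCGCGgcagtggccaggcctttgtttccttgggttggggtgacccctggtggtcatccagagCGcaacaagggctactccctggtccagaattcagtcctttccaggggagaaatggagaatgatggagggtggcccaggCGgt

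The capitals show that the number of CG sites did not sort these promoters by direction. KCNMA1, the gene with the widest fall, had 54 CG sites and 85.7% G or C, while SCN4B, which fell too, had 18 and 64.7%. Of the pair that rose, KCNH6 had 33 CG sites and KCNK6 had 16. Promoters were matched for 46 of the 63 channel genes. Their median G or C content was 70.5% and their median number of CG sites 25, against 58.3% and 14 over all 27305 promoters in the table. The median G or C content was 73.3% for the 11 matched genes that rose, 72.0% for the 9 that fell and 66.8% for the 26 that did not pass. Their median numbers of CG sites were 25, 33 and 22, in the same order. These differences were not tested.

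Forkhead factors are known to bind GTAAACA and, less tightly, ATAAACA. Either strand was searched for each of these letter strings, which differ in the first base alone. GTAAACA was found in 1 of the 46 promoters, that of SCN11A, whose gene did not pass, and ATAAACA in 0. Over all promoters in the table, 3.41% held GTAAACA and 4.33% held ATAAACA. The TATA box string TATAAA, searched on the strand of the gene, was found in 0 of the 46 and in 7.71% of all. All 3 strings are rich in A and T, and the shares were not adjusted for base content. Median G or C content was 70.5% in the 46 promoters and 58.3% over all, so the shares are not like for like. A match or its absence describes these 300 bases only.

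Median intensity was 895 to 913 per array, and the lowest value in the table was 50.002. Arrays of 1 group correlated at 0.987 to 0.990 and arrays of different groups at 0.958 to 0.964 (Pearson's r of log2 values over the features, which are no replicates). The introduced gene, FOXC2, read 3.42-fold higher where it was introduced, at a mean intensity of 8458 against 2476, so pBabe cells carried a signal for it too. Of 9 measured colorectal epithelial markers, 6 rose and 1 fell, or 77.8% passing beside 28.4% of all genes. VIL1 rose 8.62-fold, EPCAM 5.08-fold, CDX2 2.28-fold, KRT19 2.09-fold, CDH1 2.05-fold and LGALS4 1.38-fold, while KRT18 was 1.23-fold lower. The sums, 73543 to 77813 against 67911 to 73054, came mostly from KRT8 and KRT18 and do not show these rises. The keratins KRT8 and KRT18 were bright in both groups, with mean intensities from 22691 to 35384, whereas CDH1 and CDH17 were dim, with CDH1 at 200.5 and 97.9 and CDH17 at 99.6 and 108. The group with FOXC2 is given first. Detection calls were not used here, and intensities of different features do not rank transcript levels. With 3 arrays in each group, small differences cannot be resolved.

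Between the groups, 22 of the 63 channel genes passed, 13 higher and 9 lower in FOXC2 cells. That is 34.9% of the channel genes, against 28.4% of all 12562 named genes and 26.3% of all features. Higher calls made up 20.6% of the channel genes and 14.1% of all genes, and lower calls 14.3% of both. The median log2 difference, FOXC2 minus pBabe, was 0.14 over the channel genes and 0.03 over all genes. Of the 22, 6 changed at least 2-fold, 4 higher and 2 lower, where 7.08% of all genes met both conditions, 3.34% higher and 3.74% lower. For 28 of the 63 the ranges of the groups were apart, 17 above and 11 below, against 48.4% of all genes, 24.9% above and 23.5% below. These shares are close to those of the array as a whole, so the family as such did not stand out and the description turns on its single members. RNA came from whole cultures, so fewer cells of a type and less RNA per cell cannot be told apart.

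**Figure D1:**
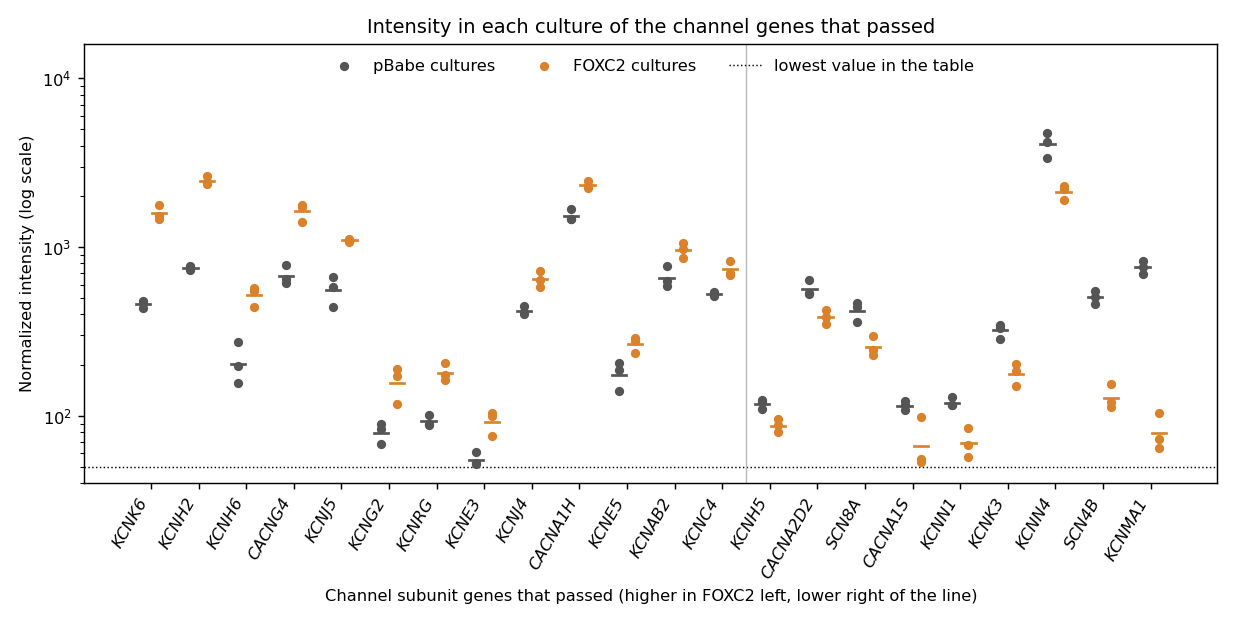
Normalized intensity on a log axis (vertical) for the 22 channel genes that passed (horizontal), with 1 point per culture, grey for pBabe and orange for FOXC2, and a bar at the mean of the log2 values. In each of the 22 genes the 3 FOXC2 points lie apart from the 3 pBabe points, and the lower group of KCNMA1, KCNE3, CACNA1S and KCNN1 comes near the lowest value in the table (dotted line).

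Most channel genes were dim. Of the 63, 38 had a mean below the lower quartile of all values, an intensity of 276, and 7 reached the median of 903, where 53.0% of all named genes did. Of the 38 dim genes 10 passed, 4 higher and 6 lower. Of the 18 between the quartile and the median 8 passed, and of the 7 brighter ones 4. Over all genes, the shares passing in the same ranges were 22.3%, 34.7% and 28.3%. The plot of brightness against difference sets these beside each other.

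**Figure D2:**
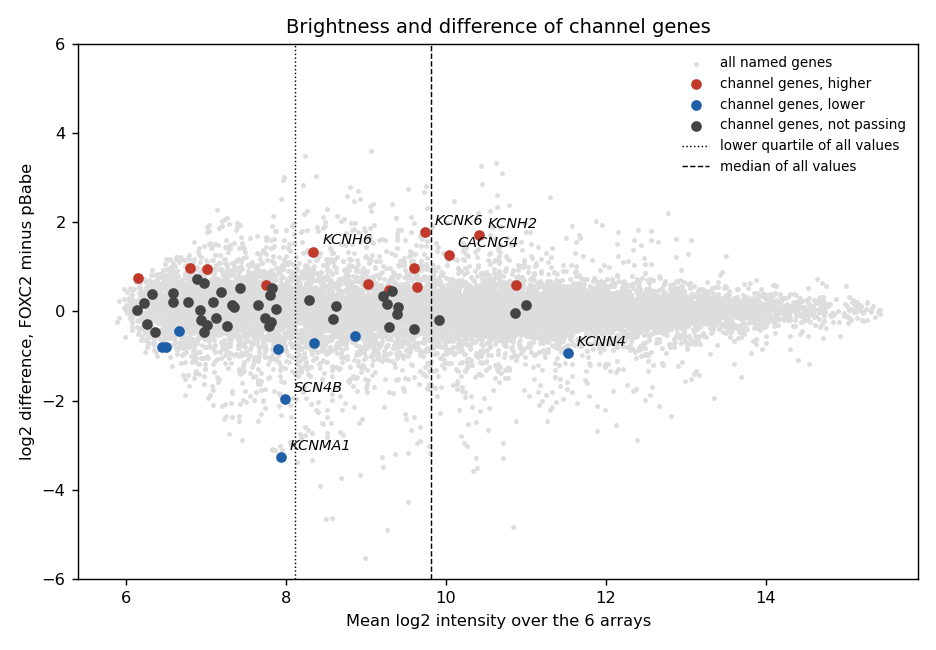
Mean log2 intensity over the 6 arrays (horizontal) and log2 difference, FOXC2 minus pBabe (vertical), for all 12562 named genes (light grey) and the 63 channel genes (coloured by call); dotted and dashed lines stand at the lower quartile and the median of all values. Most channel genes lie left of the dotted line, and KCNMA1 and SCN4B lie lowest among them.

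Calcium-activated potassium channels were lower in every member measured. These channels open when calcium inside the cell rises, and so couple calcium signals to the membrane potential. All 3 measured genes, KCNMA1, KCNN4 and KCNN1, fell. The class holds only 3 genes, and its percent passing is not set against the 28.4% of all genes by any test.

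KCNMA1 encodes the pore of the large-conductance BK channel, which opens to both calcium and voltage. It read 73.2, 104 and 64.7 with FOXC2 and 696, 828 and 763 with pBabe. All 3 FOXC2 cultures lay far below the lowest pBabe culture, and close to the lowest value in the table. The gene was 9.63-fold lower (95% confidence interval 7.11 to 13.0; log2 difference -3.27 ± 0.184, SE; n = 3 per group; limma adjusted p 9.39e-05). Without detection calls, the FOXC2 signal may be background and the size of the fall is uncertain.

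KCNN4 encodes the intermediate-conductance channel that serves the basolateral membrane of colonic cells. Its feature was the brightest of the 63, at 2299.8, 2208 and 1911 in FOXC2 cultures and 4741, 4212 and 3388 in pBabe cultures. The groups did not overlap, and the pBabe cultures spread more widely. The gene was 1.91-fold lower (95% confidence interval 1.5 to 2.43; log2 difference -0.93 ± 0.147, SE; limma adjusted p 0.00506). KCNN1, a small-conductance channel known mainly from neurons, read 85.0, 67.2 and 57.1 against 129, 115 and 116, dim in both groups and without overlap. Its log2 difference was -0.80 ± 0.154 (SE; limma adjusted p 0.0110).

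The accessory subunits of the BK channel did not follow its pore past the test. KCNMB3 and KCNMB4 encode beta subunits that change how BK channels inactivate and respond to calcium. KCNMB3 read 2142, 1896 and 1548 in FOXC2 cultures and 1792, 1860.2 and 2031 in pBabe cultures, with overlap. Its log2 difference was -0.04, with a 95% confidence interval of -0.36 to 0.29 (limma adjusted p 0.872). For KCNMB4 the difference was 0.17, with an interval of -0.24 to 0.58 (0.500). Intervals this wide do not show that the levels were equal, but they lie wholly above that of KCNMA1, -3.70 to -2.83. LRRC26 and LRRC52, whose proteins are gamma subunits of BK channels, had log2 differences of -0.03 and 0.39 and did not pass (0.914 and 0.329).

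Voltage-gated potassium pore genes moved in both directions, with 3 of 10 higher, 1 lower and 6 not passing. That is 40% passing beside 28.4% of all genes. The widest changes were in the KCNH family of ether-a-go-go channels, which help return the membrane to rest after an action potential and are found in several tumour lines. KCNH2, known as hERG, the channel of the cardiac rapid delayed rectifier current, read 2630.2, 2367 and 2436 in FOXC2 cultures and 762, 727 and 774 in pBabe cultures. The cultures of each group lay close together and far from the other group. KCNH2 was 3.28-fold higher (95% confidence interval 2.85 to 3.79; log2 difference 1.71 ± 0.0866, SE; limma adjusted p 6.49e-05).

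KCNH6, a close relative of hERG, read 547, 442 and 572 against 157, 274 and 198. The groups did not overlap, although pBabe replicate 2 lay nearer to the FOXC2 cultures than the other two did. KCNH6 was 2.53-fold higher (95% confidence interval 1.78 to 3.6; log2 difference 1.34 ± 0.214, SE; limma adjusted p 0.00535). A further relative, KCNH3, had a log2 difference of 0.63 with overlapping groups and did not pass (limma adjusted p 0.0750). KCNH5, of the ether-a-go-go branch proper, was dim in both groups and fell, at 79.7, 95.2 and 88.5 against 124, 121 and 109.9 (log2 difference -0.43 ± 0.104, SE; limma adjusted p 0.0242). That call was lost with a trended robust prior, at an adjusted p of 0.233, and without any of 4 of the arrays (0.0674 to 0.0695).

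KCNC4 encodes a fast-inactivating channel activated at strong depolarization. It read 685, 830.2 and 705 in FOXC2 cultures and 511, 543 and 529.6 in pBabe cultures, a modest but non-overlapping difference. The log2 difference was 0.48 ± 0.103 (SE; limma adjusted p 0.0159). The other pore genes, KCND3 (0.36), KCNA4 (0.21), KCNB2 (0.20), KCND1 (-0.16) and KCNC2 (-0.28), had overlapping groups and limma adjusted p values of 0.184 to 0.859. KCNA4 was the least even of all 63 genes. It read 296 in FOXC2 replicate 2 and 207 in pBabe replicate 1, but 53.7 to 71.1 on the remaining 4 arrays, and its interval, -1.57 to 2, leaves its difference unresolved.

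**Figure D3:**
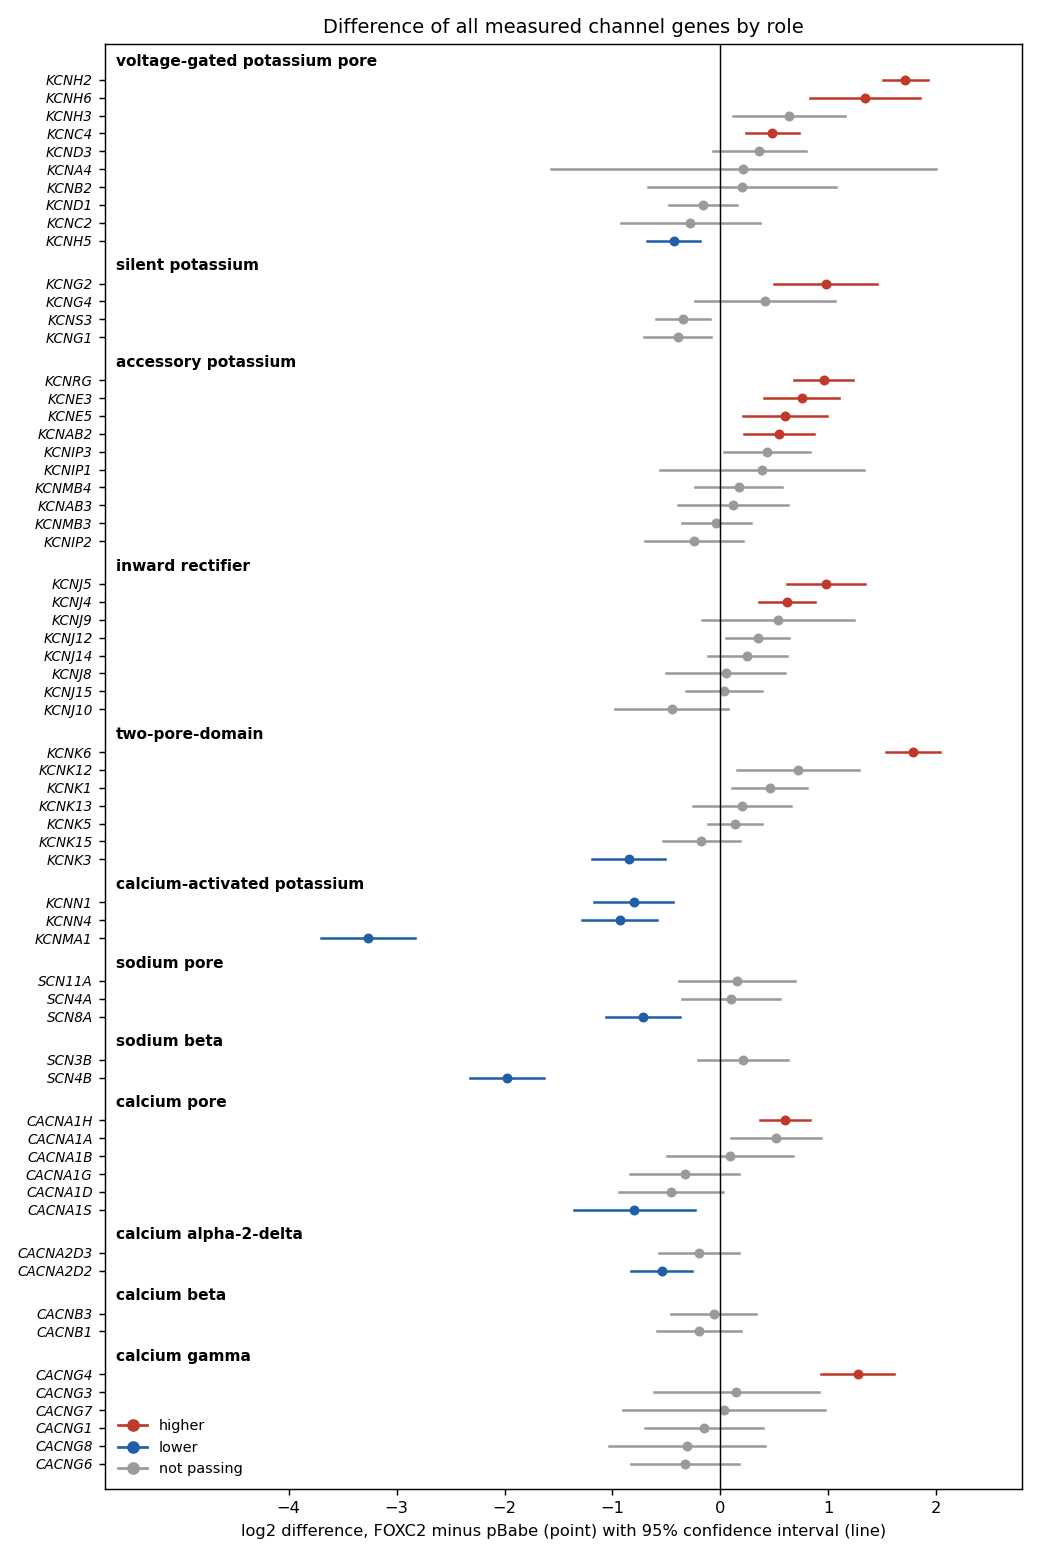
Log2 difference, FOXC2 minus pBabe (horizontal), of all 63 channel genes with its 95% confidence interval from limma (line), grouped by the role of the subunit (vertical); red passed higher, blue passed lower and grey did not pass. The calcium-activated class lies wholly to the left, the accessory potassium class has 4 red and no blue members, and KCNA4 has the widest interval.

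Subunits that modify other potassium channels comprise silent and accessory subunits. Silent subunits form no channel by themselves but join pore subunits of another family and change their gating. Of 4, KCNG2 rose, and KCNG4 (0.42), KCNS3 (-0.35) and KCNG1 (-0.40) did not pass, or 25% passing beside 28.4% of all genes. KCNG2 read 117, 191 and 171 against 83.1, 89.1 and 67.9, dim in both groups but without overlap (log2 difference 0.98 ± 0.202, SE; limma adjusted p 0.0143). Leaving out FOXC2 replicate 3 took it to 0.0505. KCNS3 lay just outside the threshold (0.0532), with all FOXC2 cultures, at 529.9 to 574, below all pBabe cultures, at 624 to 753. KCNG1 (limma adjusted p 0.0659) likewise had all FOXC2 cultures, at 608 to 802, below all pBabe cultures, at 830 to 957.

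Of 10 accessory potassium genes, 4 rose, 0 fell and 6 did not pass, or 40% passing beside 28.4% of all genes. The median log2 difference was 0.41 beside 0.03 over all genes, and the class was not tested as a set. KCNRG, whose product is a soluble protein that hinders the assembly of voltage-gated channels, rose from 101, 89.5 and 88.6 in pBabe cultures to 164, 174 and 205 in FOXC2 cultures. Every FOXC2 culture lay above every pBabe culture (log2 difference 0.96 ± 0.115, SE; limma adjusted p 0.00174). KCNE3, a single-span subunit that keeps KCNQ channels of the colon open, read 104, 75.7 and 99.6 against 52.4, 60.7 and 51.6. The pBabe values are at the bottom of the table, so the size of its rise, 0.75 ± 0.147 (SE; limma adjusted p 0.0115), is uncertain, and the call was lost with a trended robust prior (0.0702).

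KCNE5, an inhibitory relative of KCNE3, read 235, 278 and 288 against 141, 187 and 206, a log2 difference of 0.60 ± 0.164 (SE; limma adjusted p 0.0375). KCNAB2, a cytoplasmic beta subunit that binds voltage-gated channels and resembles an oxidoreductase, read 863, 979.6 and 1057 against 773, 632 and 588, a log2 difference of 0.55 ± 0.135 (SE; limma adjusted p 0.0270). Both were without overlap, yet each lost its call when any of 4 arrays was left out, with adjusted p values up to 0.111 for KCNE5 and 0.0876 for KCNAB2. The calcium-binding KCNIP subunits, which tune A-type channels, did not pass: KCNIP3 was at 0.43, KCNIP1 at 0.39 and KCNIP2 at -0.24. KCNAB3 was at 0.12.

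Of the inward rectifiers, which pass potassium best near the resting potential, 2 of 8 were higher, 0 lower and 6 did not pass. That is 25% passing beside 28.4% of all genes. KCNJ5 encodes a subunit of channels opened by G proteins. It read 1094, 1119 and 1074 in FOXC2 cultures and 443, 666 and 581 in pBabe cultures. The FOXC2 cultures were nearly identical and all above the pBabe cultures, which spread more. KCNJ5 was 1.97-fold higher (95% confidence interval 1.53 to 2.54; limma adjusted p 0.00501). KCNJ4, a strong rectifier, read 581, 719 and 643 against 447, 399 and 415, a log2 difference of 0.62 ± 0.109 (SE; limma adjusted p 0.00779). KCNJ12, another strong rectifier, was higher in every FOXC2 culture but did not pass (0.35; limma adjusted p 0.0801). KCNJ9, which joins KCNJ5-type channels, was at 0.54 with overlapping groups (0.225). KCNJ14, KCNJ8 and KCNJ15 were at 0.25, 0.05 and 0.03, and the glial and epithelial channel KCNJ10 at -0.45 (0.175).

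Tandem pore domain channels carry the background leak of potassium. Of 7 genes, KCNK6 rose, KCNK3 fell and 5 did not pass, or 28.6% passing beside 28.4% of all genes. KCNK6 encodes a weakly rectifying leak channel found in lysosomes and at the cell surface. It read 1536, 1787 and 1471 in FOXC2 cultures and 469, 482 and 439 in pBabe cultures. All 3 FOXC2 cultures lay far above the pBabe cultures, and each group was tight. At 3.44-fold (95% confidence interval 2.89 to 4.09; log2 difference 1.78 ± 0.105, SE; limma adjusted p 1.08e-04), it was the largest rise among the 63 genes.

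KCNK3, an acid-sensitive leak channel, moved the opposite way, with 149, 186 and 203 in FOXC2 cultures and 285, 347 and 333 in pBabe cultures. The groups did not overlap and both were dim (log2 difference -0.85 ± 0.143, SE; limma adjusted p 0.00660). KCNK5, an alkaline-activated leak channel of epithelia, was among the 3 brightest channel features, at 1936, 2394 and 2124 against 2018, 1863 and 1975. Its groups overlapped, and its log2 difference was 0.14 with a 95% confidence interval of -0.12 to 0.39 (limma adjusted p 0.382). KCNK1 (0.46; 0.0588) and KCNK12 (0.72; 0.0653) were higher in every FOXC2 culture without passing by limma, while KCNK13 (0.20) and KCNK15 (-0.18) had overlapping groups.

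Among sodium channels, a beta subunit and a pore subunit fell, and 3 of 5 genes did not pass. That is 40% passing beside 28.4% of all genes. SCN4B encodes a single-span beta subunit with an immunoglobulin fold, which changes the gating of the pore and acts in cell adhesion. It read 155, 112 and 121 in FOXC2 cultures and 509, 547 and 458 in pBabe cultures. The highest FOXC2 culture lay far below the lowest pBabe culture. SCN4B was 3.93-fold lower (95% confidence interval 3.10 to 4.98; log2 difference -1.97 ± 0.144, SE; limma adjusted p 2.40e-04). The FOXC2 signal was dim, so the size of this fall is uncertain.

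SCN8A, a pore subunit of neuronal axons, read 296, 247 and 229 against 439, 469 and 360.5, without overlap. Its log2 difference was -0.72 ± 0.143 (SE; limma adjusted p 0.0126). The skeletal muscle pore SCN4A (0.10), the sensory neuron pore SCN11A (0.15) and the beta subunit SCN3B (0.21) had overlapping groups, with limma adjusted p values of 0.415 to 0.734.

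Calcium channel genes were split, with 2 of 16 higher, 2 lower and 12 not passing, or 25% passing beside 28.4% of all genes. CACNG4 encodes a gamma subunit of the group best known as partners of AMPA glutamate receptors in neurons. It read 1781, 1409 and 1733 in FOXC2 cultures and 609.6, 644 and 787 in pBabe cultures. All FOXC2 cultures lay well above the pBabe cultures. CACNG4 was 2.41-fold higher (95% confidence interval 1.91 to 3.05; log2 difference 1.27 ± 0.141, SE; limma adjusted p 0.00127). The other 5 gamma subunits, CACNG1, CACNG3, CACNG6, CACNG7 and CACNG8, had log2 differences of -0.33 to 0.15, overlapping groups and group means below 213. CACNG1 is the next coding gene to CACNG4 on chromosome 17 in RefSeq, and its log2 difference was -0.15 (limma adjusted p 0.660).

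Of 6 calcium pore genes, CACNA1H rose and CACNA1S fell, or 33.3% passing beside 28.4% of all genes. CACNA1H encodes a low-voltage-activated T-type pore and was among the 3 brightest channel features. It read 2456, 2237 and 2288 in FOXC2 cultures and 1685, 1464 and 1461 in pBabe cultures, without overlap, a 1.52-fold rise (95% confidence interval 1.29 to 1.78; limma adjusted p 0.00579). The related T-type pore CACNA1G was dimmer and did not pass, at a log2 difference of -0.33 (limma adjusted p 0.291). CACNA1S, the L-type pore of skeletal muscle, read 55.4, 53.3 and 98.2 against 115, 122 and 108, dim in both groups and, in 2 of the FOXC2 cultures, near the lowest value in the table. Its log2 difference of -0.80 ± 0.235 (SE) had a limma adjusted p of 0.0476, the closest of the 22 to the threshold, and did not pass with any 1 of 5 of the 6 arrays left out (0.0910 to 0.126). CACNA1A was higher in every FOXC2 culture at 0.52 but did not pass (0.0733), and CACNA1B (0.09) and CACNA1D (-0.45) had overlapping groups.

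The alpha-2-delta subunits, which bring calcium pores to the membrane, included 1 that fell. CACNA2D2 read 387, 351 and 425 in FOXC2 cultures and 635, 528 and 535 in pBabe cultures, all FOXC2 values below all pBabe values (log2 difference -0.54 ± 0.118, SE; limma adjusted p 0.0167). Without FOXC2 replicate 2 the adjusted p was 0.0549. CACNA2D3 was at -0.20 and did not pass (0.388). Of the cytoplasmic beta subunits, which fold and traffic the pore, 0 of 2 passed by limma, and 0 had an unadjusted p under 0.05. The lower p was that of CACNB1, which read 750.4, 1024 and 965 against 1242, 928 and 971 (log2 difference -0.20, 95% confidence interval -0.59 to 0.19; limma adjusted p 0.412). CACNB3 was at -0.06 (0.809).

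Where a gene had several array features, they could be set against each other, although features of 1 gene share its RNA and are not replicates. Of the 63 genes, 8 had several, 22 features in all. Both KCNH2 features rose, by 1.71 and 1.70, and both KCNC4 features rose, by 0.48 and 0.88. The 5 CACNA1G features all had a negative difference, from -0.70 to -0.30, and 1, which was not the brightest, fell past the test (limma adjusted p 0.0180). The CACNA1A features differed by 0.52 and 0.50, and the dimmer passed (0.0439). The 4 KCNMB3 features lay between -0.28 and 0.40 and the 3 CACNB1 features between -0.20 and 0.30, with 0 passing by limma and 0 at an unadjusted p under 0.05. The CACNG6 and KCNIP2 features were all below 0, and 0 of these 4 passed by limma or had an unadjusted p under 0.05.

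**Figure D4:**
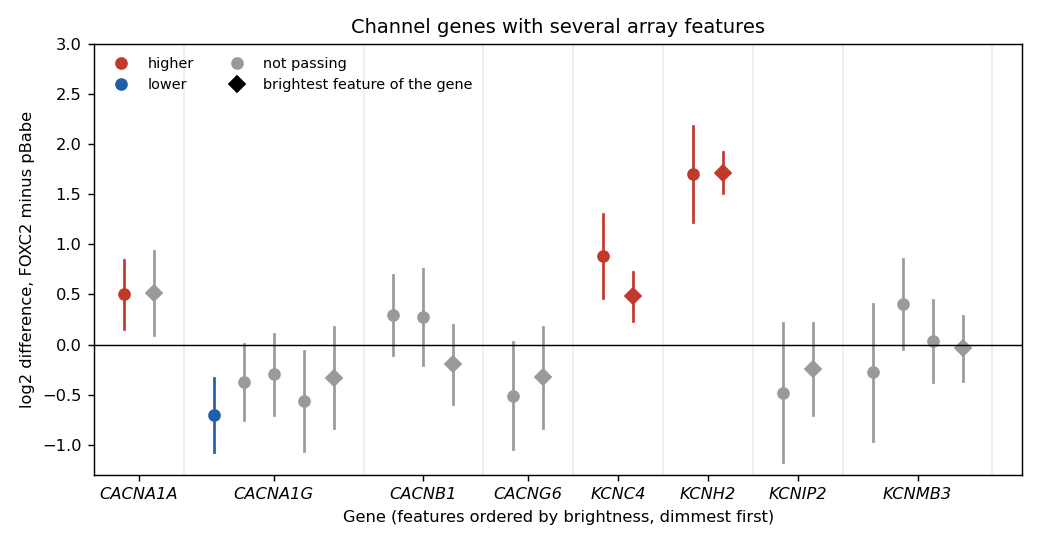
Log2 difference, FOXC2 minus pBabe (vertical), with its 95% confidence interval from limma for each of the 22 features of the 8 channel genes that have several (horizontal, dimmest first); diamonds mark the feature that stands for the gene. The KCNH2 features lie at 1.70 and 1.71, and those of CACNB1 and KCNMB3 lie on both sides of 0.

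Genes that work with these channels were described from 3 lists. Of 30 other cation channels, 5 rose, 5 fell and 20 did not pass, or 33.3% passing beside 28.4% of all genes, with a median log2 difference of 0.13. The pacemaker channel HCN2, from the same superfamily as the KCNH pores, read 2194, 2506 and 2405 in FOXC2 cultures and 1375, 910.4 and 1098 in pBabe cultures, a 2.13-fold rise (limma adjusted p 0.00376). TRPV4, an osmotically sensitive calcium-permeable channel, rose 2.08-fold (4.58e-04). TRPV2, another member of its family, fell by 1.12 on the log2 scale (2.19e-04), and ITPR1, which releases calcium from the endoplasmic reticulum in answer to inositol trisphosphate, by 0.95 (0.00214).

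Of 23 channel partners and regulators, 1 rose, 4 fell and 18 did not pass, or 21.7% passing beside 28.4% of all genes (median -0.03). The kinase WNK4, which controls salt transport in epithelia, rose 2.55-fold (limma adjusted p 2.63e-04). STAC, an adaptor of L-type calcium channels, fell by 1.53 (0.0135), with 162, 270.1 and 413 in FOXC2 cultures against 716, 772 and 779.5. The scaffold DLG1, which clusters potassium channels, fell by 0.84 (7.64e-04), and the kinase SGK1, which raises channel numbers at the membrane, by 0.69 (0.00497). REST, the repressor of many neuronal channel genes, was at -0.20 and did not pass (0.425).

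Pumps build the ion gradients that channels spend. The list of pumps and exchangers, which also holds cotransporters and pump regulators, had more falls than rises. No catalytic ATP1A subunit of the sodium pump was among the genes measured. Of 21, 10 fell, 1 rose and 10 did not pass, so 52.4% passed beside 28.4% of all genes, and the median log2 difference was -0.44 beside 0.03. The list was not tested as a set, and like the other lists it was chosen with earlier results of these data known. SLC12A3, the thiazide-sensitive sodium chloride cotransporter, read 95, 103 and 92.5 in FOXC2 cultures and 764, 721 and 718 in pBabe cultures, and fell by 2.93 on the log2 scale (limma adjusted p 2.45e-05). FXYD3 and FXYD6, regulators of the sodium pump, fell by 2.59 (0.00423) and 1.57 (5.76e-04), and ATP2B4, a calcium pump of the plasma membrane, by 1.36 (0.00202). The FOXC2 signals of SLC12A3 and FXYD3 were dim, so the sizes of their falls are uncertain too. The member that rose was SLC8A2, a sodium-calcium exchanger known from brain, at 613, 540.0 and 661 against 273, 262 and 202 (2.47-fold; 0.00126); it was named after its values were seen.

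**Figure D5:**
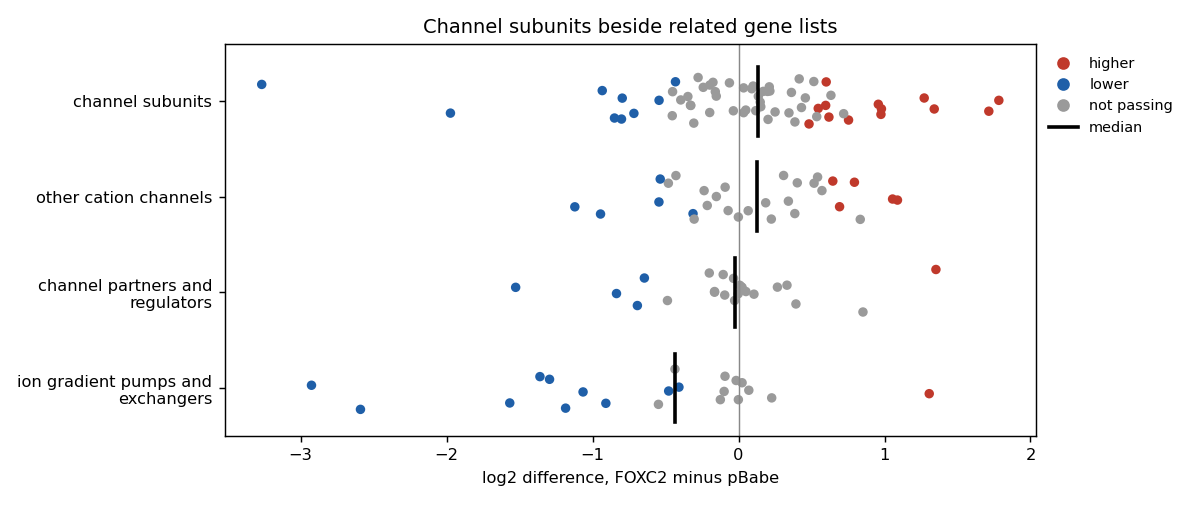
Log2 difference, FOXC2 minus pBabe (horizontal), for each gene of the channel family and of the 3 related lists (vertical), coloured by call, with a black bar at each list's median. The median lies at 0.14 for channel subunits, 0.13 for other cation channels, -0.03 for partners and -0.44 for pumps and exchangers.

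Markers of cell types that use many of these channels were read as well. The share passing was 33.3% in the neuronal list, 33.3% in the striated muscle list and 25% in the smooth muscle and pericyte list. Beside 28.4% of all genes, these lists did not stand out. Of 6 measured neuronal markers 2 rose, SYP and SYN1, 0 fell and 4 did not pass, and the summed intensity of the list was 26592 to 27754 in FOXC2 cultures and 18866 to 22244 in pBabe cultures. Both enteroendocrine markers measured, of 8 listed, rose, CHGA 6.70-fold and CHGB 4.64-fold. That is 100% passing beside 28.4% of all genes, in a list of only 2 measured genes. Their sums were 4699 to 5135 against 823 to 1045. Of 6 striated muscle markers, 1 rose, TNNI3, and 1 fell, DES, with sums of 57017 to 58134 against 49513 to 50619. Most of these sums came from ACTA1, with means of 25510 and 21285, and ACTC1, with 22098 and 17790. Neither passed (limma adjusted p 0.0703 and 0.0670). Of 4 smooth muscle and pericyte markers, 1 fell, PDGFRB, with sums of 549 to 677 against 1153 to 1364. SOX10, the single glial marker measured, rose by 0.81 from a dim level. None of these markers could read 0 here, since the lowest value is 50.002. Among the neuronal markers, SYP had means of 7647 and 1861, SYN1 of 2192 and 538 and TUBB3 of 16517 and 17728, while SNAP25 (213 and 140), GAP43 (215 and 201) and ELAVL3 (377 and 295) were dimmer and did not pass. The part of these cell type markers in the channel results was not tested.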

How the data were processed

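Each of the 6 SW480 cultures gave total RNA for 1 NimbleGen array, read in a single colour (Cy3), per the labels' protocols. The table the authors deposited holds linear intensities, made with RMA per the submitters' processing notes. Version, background settings and genome build: not given in the sources used here. RMA as usually run makes arrays alike, so a shift shared by all transcripts would not be seen.

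Intensities were put on the log2 scale with no offset or filter, and FOXC2 was compared with pBabe by limma 3.58.1 in R 4.3.3 (lmFit, then eBayes) over all 33497 features, with Benjamini-Hochberg adjustment. The steps were tested on simulated data, with 50 changed features at each size of difference. Of these, 0% were called at a log2 difference of 0.3, 4% at 0.5, 78% at 1 and 98% at 2. Far fewer features changed there than were called in the data, so these rates need not hold for the data. Of the features, 13730 carried 1 gene symbol. Companion and marker lists were matched through gene IDs to RefSeq symbols. Named were all passing channel genes, the 3 brightest, the lowest p of a class with none passing, and up to 4 passing genes per companion list with the largest differences. Members and lists were chosen with earlier results of these data known. Other genes, given by their place in a class, in a marker list or beside a channel gene, were named after their values were seen.

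Same-numbered cultures did not deviate together (correlations of -0.102, -0.119 and -0.0615), so the replicate number was not used as a block. Tried besides were leaving out each array or all dim features, median centring, quantile normalization, array weights, a trended robust prior, the replicate block, averaging the features of a gene, and adding an offset of 16. Of the matched promoters 4 are shown, and the sequences of the others are not reported here.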

Additional observations from a re-analysis of the deposited data

How the results depend on the processing

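With dim features left out, 10 channel genes remained to be tested and 6 were higher and 1 lower. A gene stayed if bright in either group, so the change itself helps decide which genes stay, and these counts are no check of the direction. Shares over all genes are given for the main setting only, so 28.4% is no yardstick for the counts in this paragraph. The same setting gave 3 higher and 2 lower among other cation channels, 2 higher and 3 lower among partners, and 0 higher and 3 lower among pumps and exchangers. With each array left out, 10 to 15 channel genes were higher and 7 to 10 lower; the ranges were 3 to 5 and 2 to 4 for other cation channels, 1 to 2 and 3 to 4 for partners, and 1 to 1 and 7 to 9 for pumps. With the replicate block, 13 channel genes were higher and 7 lower, and 3 other cation channels were lower instead of 5. The block ended the calls of CACNA1S (adjusted p 0.0785), KCNAB2 (0.0810) and KCNH5 (0.0677) and of no other passing channel gene. Over the 14 settings, 15 of the 22 passing genes kept their call wherever they were tested; CACNA1S, CACNA2D2, KCNAB2, KCNE3, KCNE5, KCNG2 and KCNH5 lost it at least once, and 0 of the 22 changed sign. CACNA1S also missed the threshold with median centring (0.0509), a trended robust prior (0.0630) and array weights (0.0674). The mean over its features turned CACNB1 to 0.13 (adjusted p 0.595), since its features differ in sign. The cause was not tested for the other changes.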

Other observations

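The nearest measured coding genes on either side of the 6 channel genes that changed at least 2-fold were also read, 24 in all, with the order of genes taken from RefSeq. Of these, 9 passed, 5 higher and 4 lower, or 37.5% beside 28.4% of all genes. Around SCN4B on chromosome 11, 3 of 4 were lower as SCN4B was, where 14.3% of all genes were lower. These 4 lay 3 to 5 places from SCN4B in the order of coding genes. FXYD6 among them is also in the list of pumps and exchangers. The sodium pump regulator FXYD6 fell by 1.57, the interleukin receptor IL10RA by 1.23 (limma adjusted p 0.0305) and the adhesion protein MPZL2 by 0.91 (limma adjusted p 6.97e-04), while MPZL3 was at 0.52 and did not pass (0.0669). IL10RA read 134, 187 and 323 in FOXC2 cultures and 586, 432 and 414 in pBabe cultures, so FOXC2 replicate 3 lay closest to the other group.

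Beside KCNH6 on chromosome 17, ACE, which makes angiotensin II, rose 2.27-fold (limma adjusted p 6.90e-04), from 107, 96.2 and 96.5 in pBabe cultures to 199, 239 and 244 in FOXC2 cultures. CYB561, a transmembrane electron carrier and the next gene on that side, rose 1.5-fold (0.00380). On the other side DCAF7 and TACO1 were at 0.16 and 0.07 and did not pass. Near KCNH2 on chromosome 7, TMEM176A rose 7.12-fold (limma adjusted p 3.83e-04). Its pBabe cultures were dim, at 155, 106 and 82.6, so the size of its rise is uncertain. AOC1, which lies between TMEM176A and KCNH2, was at 0.10 and NOS3, on the other side, at 0.10. Neither passed (limma adjusted p 0.527 and 0.672). ABCB8, beyond NOS3, rose by 0.45 (0.0491). KCNMA1 had 0 of 4 measured neighbours passing by limma, with log2 differences of -0.32 to 0.37, and CACNG4 also had 0 of 4, from -0.28 to -0.15. Next to KCNK6 on chromosome 19, CATSPERG, an accessory subunit of the sperm calcium channel, fell by 0.66 (0.0348) and C19orf33 rose by 0.51 (0.0179).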
